A study of Arabidopsis thaliana with 28 samples.

Results

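The SnRK2 protein kinases are the sucrose non-fermenting 1-related kinases of subfamily 2 in Arabidopsis thaliana, and all 10 of their genes, SnRK2.1 to SnRK2.10, were described here among 33557 entries of the deposited table. They were found by locus identifier. RNA of whole seedlings of the Col-0 wild type was sequenced from both fragment ends after the seedlings had been treated with abscisic acid (ABA) or with an ethanol mock (EtOH) and collected at 0.5, 1, 3, 6, 9, 12 and 24 h. The 14 groups held 2 libraries each, but the deposited values are 1 pooled FPKM (fragments per kilobase of transcript, scaled to sequencing depth) per gene and group, so that no pooled value has a replicate error. How much ABA was applied, how old the seedlings were and whether the libraries of a group were grown apart is left unsaid by the labels, so the error used below is the spread between times. All groups shared the same genotype, and no group lacked a SnRK2 gene.

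ABA is the hormone of drought and seed dormancy. Without it, clade A PP2C phosphatases hold the ABA-activated SnRK2 kinases in a dephosphorylated, inactive state. When ABA binds its PYR/PYL receptors, these capture the phosphatases, and the freed kinases, activated further by RAF-type kinases, phosphorylate bZIP transcription factors of the ABF family and ion channels of guard cells. SnRK2.2, SnRK2.3 and SnRK2.6 (OPEN STOMATA 1, OST1) form subclass 3 and are strongly activated by ABA. SnRK2.6 is known for closing stomata, and SnRK2.2 and SnRK2.3 for seed dormancy and seedling growth under ABA. SnRK2.7 and SnRK2.8 form subclass 2, activated weakly by ABA. SnRK2.1, SnRK2.4, SnRK2.5, SnRK2.9 and SnRK2.10 form subclass 1, whose kinases, apart from SnRK2.9, are known to be activated by osmotic stress and not by ABA. This activation acts on the protein, whereas the values below are transcript levels.

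In the TAIR10.1 annotation the subclass 3 genes lie at chr3:18741444-18744174 (SnRK2.2, AT3G50500, minus strand), chr5:26710302-26712971 (SnRK2.3, AT5G66880, plus) and chr4:16271745-16274825 (SnRK2.6, AT4G33950, plus). SnRK2.7 (AT4G40010) lies at chr4:18548444-18551183 and SnRK2.8 (AT1G78290) at chr1:29457205-29459493, both on the minus strand. The subclass 1 genes lie at chr5:2783168-2786113 (SnRK2.1, AT5G08590, plus), chr1:3655673-3658612 (SnRK2.4, AT1G10940, minus), chr5:25481334-25483799 (SnRK2.5, AT5G63650, minus), chr2:9803492-9806731 (SnRK2.9, AT2G23030, minus) and chr1:22439063-22442221 (SnRK2.10, AT1G60940, minus). Their longest annotated transcripts measured 1409 to 1911 bases. Annotated genes on the opposite strand overlap SnRK2.1, SnRK2.3, SnRK2.5 and SnRK2.8, and a gene on the same strand overlaps SnRK2.4. Whether counting used strand is not stated, so the values of these 5 genes may hold reads of a neighbour.

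Sequences of the 300 bases upstream of each annotated transcript start were read from the RefSeq genome, build TAIR10.1, and searched on both strands for ACGTG, the core of the ABA-responsive element (ABRE) that ABF factors bind. It occurred upstream of 3 of the 10 genes, SnRK2.3, SnRK2.7 and SnRK2.9, and in 25.6% of 27443 protein-coding promoters of the same length. These 3 are shown as all the members with a match. SnRK2.7 and SnRK2.9 had the largest averaged ABA effects of the family, but that of SnRK2.3 did not pass the test described below. SnRK2.1, SnRK2.6 and SnRK2.10 had no match and were also called higher in that test. The capitals mark the matches, 5′ to 3′ on the strand of the gene. The windows are chr5:26710002-26710301 for SnRK2.3, chr4:18551184-18551483 for SnRK2.7 and chr2:9806732-9807031 for SnRK2.9.
SnRK2.3 promoter: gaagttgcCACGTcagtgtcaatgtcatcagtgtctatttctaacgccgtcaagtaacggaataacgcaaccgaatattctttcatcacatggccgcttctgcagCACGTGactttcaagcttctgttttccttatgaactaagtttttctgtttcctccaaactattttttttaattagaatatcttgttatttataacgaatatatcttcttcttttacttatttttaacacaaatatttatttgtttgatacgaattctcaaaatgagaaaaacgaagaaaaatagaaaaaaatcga
SnRK2.7 promoter: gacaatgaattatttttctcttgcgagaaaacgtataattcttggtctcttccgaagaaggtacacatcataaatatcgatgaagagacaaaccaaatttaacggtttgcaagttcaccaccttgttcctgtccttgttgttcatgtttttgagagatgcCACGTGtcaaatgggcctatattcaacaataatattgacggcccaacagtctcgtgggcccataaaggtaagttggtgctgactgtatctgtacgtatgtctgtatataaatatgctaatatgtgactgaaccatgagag
SnRK2.9 promoter: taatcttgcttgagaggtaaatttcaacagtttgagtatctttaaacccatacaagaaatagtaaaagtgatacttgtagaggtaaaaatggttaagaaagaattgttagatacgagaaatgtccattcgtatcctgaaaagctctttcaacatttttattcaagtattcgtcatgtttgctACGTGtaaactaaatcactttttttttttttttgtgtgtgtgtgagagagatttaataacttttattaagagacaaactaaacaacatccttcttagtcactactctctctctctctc
In SnRK2.3 and SnRK2.7 the matches include the palindrome CACGTG (the G-box), which holds ACGTG on both strands and was present in 7.09% of the promoters. It began 195 bases upstream of the start in SnRK2.3 and 140 in SnRK2.7, and the single match of SnRK2.9 began 118 bases upstream. CCGAC, the core of the dehydration-responsive element, was in none of the 10 windows and in 13.9% of all promoters. These are matches of letters in 1 window and not measured binding.

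Coding ends were compared between members other than SnRK2.5. The last 120 coding bases before the stop codon, 40 codons, encode the C-terminal region of the kinases, which in subclass 3 is the part known to bind the phosphatases. Aspartate codons (GAT or GAC, in capitals below) numbered 12 in SnRK2.2, 12 in SnRK2.3 and 10 in SnRK2.6, beside 3, 3 and 4 glutamate codons (GAA or GAG). In subclass 2 they numbered 13 in SnRK2.7 and 9 in SnRK2.8, beside 2 and 0. Among the subclass 1 genes compared, glutamate codons outnumbered aspartate codons in SnRK2.1 (16 against 6), SnRK2.4 (17 against 6) and SnRK2.10 (15 against 4), whereas SnRK2.9 had 7 against 8. SnRK2.6 and SnRK2.7 are shown as aspartate-rich forms and SnRK2.9 as a mixed one.
SnRK2.6 coding end: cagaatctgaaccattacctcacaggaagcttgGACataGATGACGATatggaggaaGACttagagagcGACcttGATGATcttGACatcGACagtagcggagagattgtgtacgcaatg
SnRK2.7 coding end: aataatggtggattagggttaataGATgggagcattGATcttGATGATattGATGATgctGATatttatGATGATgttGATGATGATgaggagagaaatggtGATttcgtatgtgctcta
SnRK2.9 coding end: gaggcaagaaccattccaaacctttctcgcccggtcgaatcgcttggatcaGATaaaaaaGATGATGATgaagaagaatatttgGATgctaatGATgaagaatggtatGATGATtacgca

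Transcript levels of 5 of the 10 kinase genes were higher under ABA on average over the 7 times, and the 2 largest averaged effects were outside the ABA-activated subclass. SnRK2.7 (subclass 2) and SnRK2.9 (subclass 1) averaged 3.86-fold and 3.80-fold higher under ABA than in mock, on the scale of FPKM + 1. SnRK2.1 (1.81-fold), SnRK2.6 (1.68-fold) and SnRK2.10 (1.497-fold) rose too, and SnRK2.5 fell, to 0.831 of its mock level. For SnRK2.2, SnRK2.3, SnRK2.4 and SnRK2.8 no averaged effect passed the test. The test was limma with Benjamini-Hochberg adjustment over 20034 genes, in which the mean of the 7 differences of log2(FPKM + 1), ABA minus mock, was set against their spread over times. In it, 23.9% of all tested genes were called higher and 23.2% lower, with a median effect of 0.0004 over all genes and of 0.44 over the 10 members. All 10 members had at least 1 FPKM in every pool.

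**Figure D1:**
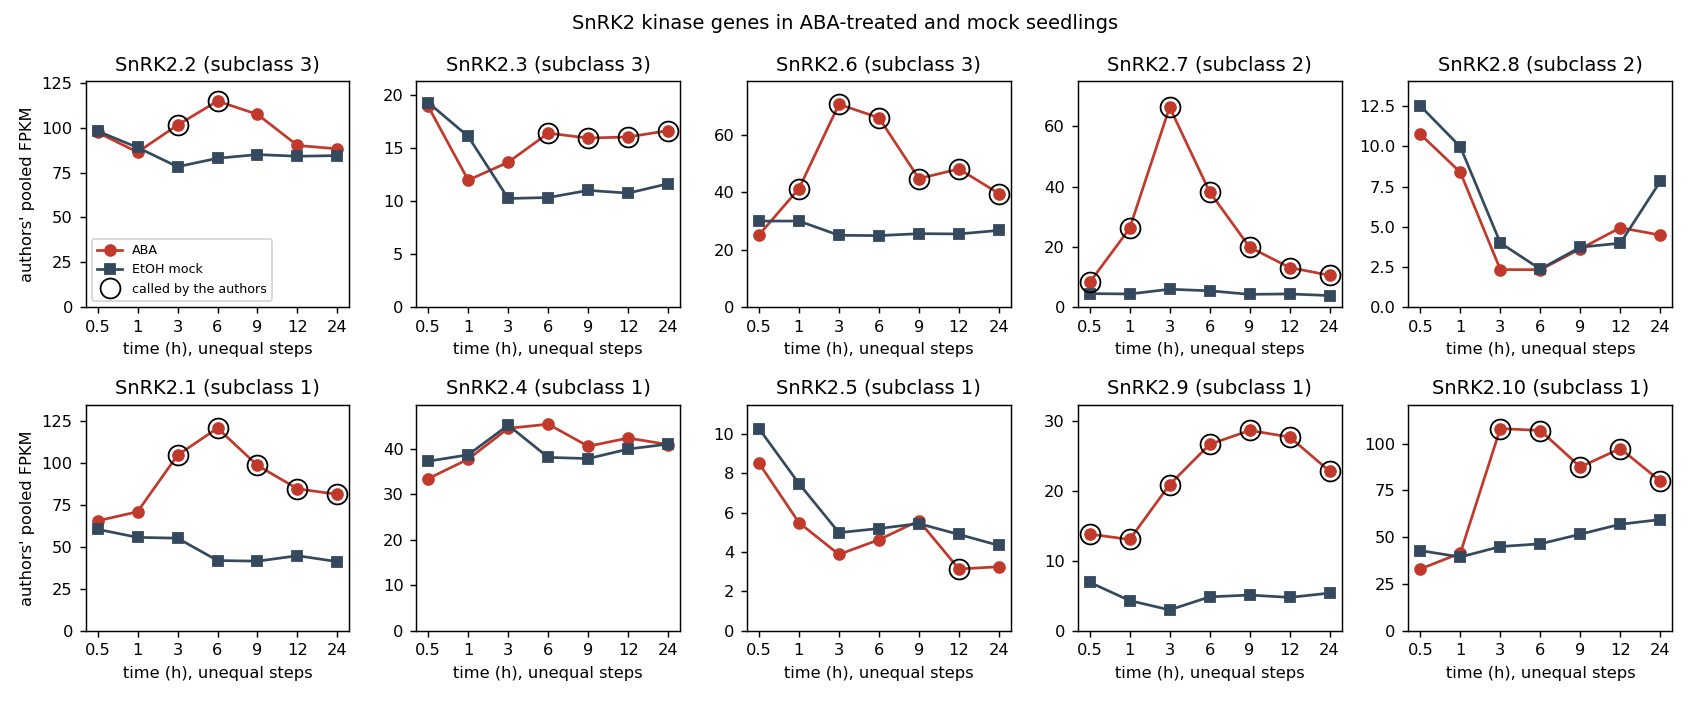
Pooled FPKM of the 10 SnRK2 genes (vertical axes from 0, scales differ) at 7 times in h, with ABA in red circles, EtOH mock in dark blue squares and black rings at times called different in the authors' deposited table. SnRK2.7 peaks at 66.4 FPKM at 3 h under ABA, and SnRK2.9 stays above its mock level at all 7 times.

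Among the ABA-activated kinases, SnRK2.6 had 25.1, 41.3, 70.7, 66.0, 44.8, 48.2 and 39.6 FPKM at 0.5, 1, 3, 6, 9, 12 and 24 h of ABA, against 30.0, 30.0, 25.0, 24.9, 25.6, 25.5 and 26.7 FPKM in mock. It was thus lower under ABA at 0.5 h and higher at the 6 later times, highest at 3 h with a ratio of 2.82, while mock stayed within a narrow range. The authors' deposited table called it higher at those 6 times and not at 0.5 h. Averaged over times, the effect was 0.75 ± 0.19 (log2, SE; limma adjusted p = 0.0111).

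SnRK2.2 had the highest level of the family at 0.5, 1, 9 and 24 h of ABA and at all 7 times in mock, while SnRK2.10 was highest at 3 and 12 h of ABA and SnRK2.1 at 6 h. SnRK2.2 had 97.5, 86.4, 101.5, 115, 108, 90.2 and 88.3 FPKM from 0.5 to 24 h of ABA, against 98.2, 89.1, 78.3, 83.0, 85.1, 84.2 and 84.5 FPKM in mock. The ABA and mock ranges overlapped, and the largest ratio was 1.38 at 6 h. The authors' deposited table called it higher at 3 and 6 h. The averaged effect of SnRK2.2 was 0.18 ± 0.09 (log2, SE; 95% interval -0.01 to 0.38; limma adjusted p = 0.113).

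SnRK2.3 had 18.9, 12.0, 13.7, 16.4, 16.0, 16.1 and 16.7 FPKM from 0.5 to 24 h of ABA, against 19.3, 16.1, 10.3, 10.3, 11.02, 10.8 and 11.7 FPKM in mock. Both courses began alike, the ABA level was lower at 1 h (ratio 0.744), and from 3 h on it was higher, while the mock level had dropped below its 1 h value. The authors' deposited table called it higher at 6, 9, 12 and 24 h. Over all times its effect was 0.30 ± 0.13 (log2, SE; 95% interval 0.01 to 0.59; limma adjusted p = 0.0818). Without the 1 h pools it was 0.42, with an adjusted p of 0.00986, in a range of 0.00986 to 0.198 over 13 alternative settings.

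In subclass 2, SnRK2.7 and SnRK2.8 behaved differently. SnRK2.7, a kinase with a role in drought responses, had 8.18, 26.1, 66.4, 38.3, 19.9, 13.1 and 10.6 FPKM from 0.5 to 24 h of ABA, against 4.47, 4.36, 5.93, 5.42, 4.23, 4.37 and 3.83 FPKM in mock. Every ABA pool lay above every mock pool, a separation not counted over all genes. The ratio was 1.83 at 0.5 h, 11.2 at 3 h and 2.76 at 24 h. The authors' deposited table called it higher at all 7 times. Its averaged effect was 1.95 ± 0.28 (log2, SE; limma adjusted p = 0.000844).

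SnRK2.8, known to phosphorylate regulators of growth and defence, ranged over 2.33, 4.48 and 10.8 FPKM under ABA (lowest, median and highest), against 2.36, 3.99 and 12.5 FPKM in mock. In both treatments it was highest at 0.5 h and lowest at 6 h, and the groups overlapped. The authors' deposited table called it at no time, although its ratio was 0.584 at 3 h and 0.573 at 24 h. Averaged, SnRK2.8 differed by -0.21 ± 0.12 (log2, SE; limma adjusted p = 0.163).

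In subclass 1, SnRK2.9 had 13.8, 13.1, 20.9, 26.7, 28.7, 27.8 and 22.8 FPKM from 0.5 to 24 h of ABA, against 6.95, 4.33, 2.99, 4.86, 5.12, 4.78 and 5.399 FPKM in mock. The groups did not overlap, which was not counted over all genes. The ratio lay between 1.99 at 0.5 h and 6.997 at 3 h and was still 4.23 at 24 h. The authors' deposited table called it higher at all 7 times. For SnRK2.9 the averaged effect was 1.93 ± 0.19 (log2, SE; limma adjusted p = 0.000132). Of the 25269 entries with a value above 0, 2.83% were called higher at all 7 times in the authors' deposited table, and SnRK2.7 and SnRK2.9 were among them.

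SnRK2.1 had 65.4, 70.8, 104, 121, 98.4, 84.5 and 81.1 FPKM from 0.5 to 24 h of ABA, against 60.4, 55.6, 55.1, 41.8, 41.4, 44.6 and 41.1 FPKM in mock. Every ABA pool was above every mock pool, a separation again not counted over all genes. The largest ratio, 2.88, was at 6 h. The authors' deposited table called it higher from 3 h on. Its averaged effect was 0.85 ± 0.16 (log2, SE; limma adjusted p = 0.00303).

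SnRK2.10, which with SnRK2.4 is known for root growth under salt, had 33.0, 41.5, 108, 107, 87.6, 97.4 and 80.0 FPKM from 0.5 to 24 h of ABA, against 42.9, 39.4, 45.0, 46.5, 51.6, 57.0 and 59.5 FPKM in mock. It was lower under ABA at 0.5 h (ratio 0.770), near mock at 1 h and highest relative to mock at 3 h (2.401). The authors' deposited table called it higher from 3 h on. SnRK2.10 had an averaged effect of 0.58 ± 0.19 (log2, SE; limma adjusted p = 0.0323), with adjusted p between 0.00577 and 0.0902 over 13 alternative settings. It no longer passed when the 3, 6, 9, 12 or 24 h pools were left out (effects of 0.47, 0.48, 0.55, 0.55 and 0.61).

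SnRK2.4 ranged over 33.5, 41.0 and 45.4 FPKM under ABA (lowest, median and highest), against 37.3, 38.7 and 45.2 FPKM in mock. Its groups overlapped, and the authors' deposited table called it at no time. Its averaged effect was 0.03 ± 0.07 (log2, SE; 95% interval -0.13 to 0.19; limma adjusted p = 0.739), and this sign turned under 3 of the 13 settings.

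SnRK2.5 ranged over 3.14, 4.62 and 8.52 FPKM under ABA (lowest, median and highest), against 4.33, 5.19 and 10.3 FPKM in mock. The groups overlapped, but ABA was below mock at 6 of 7 times, and the authors' deposited table called it lower at 12 h (ratio 0.642). Its averaged effect was -0.27 ± 0.08 (log2, SE; limma adjusted p = 0.0219), which did not pass without the 3 h pools (-0.26) or without the 12 h pools (-0.23), with adjusted p between 0.0110 and 0.0553 over 13 settings.

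**Figure D2:**
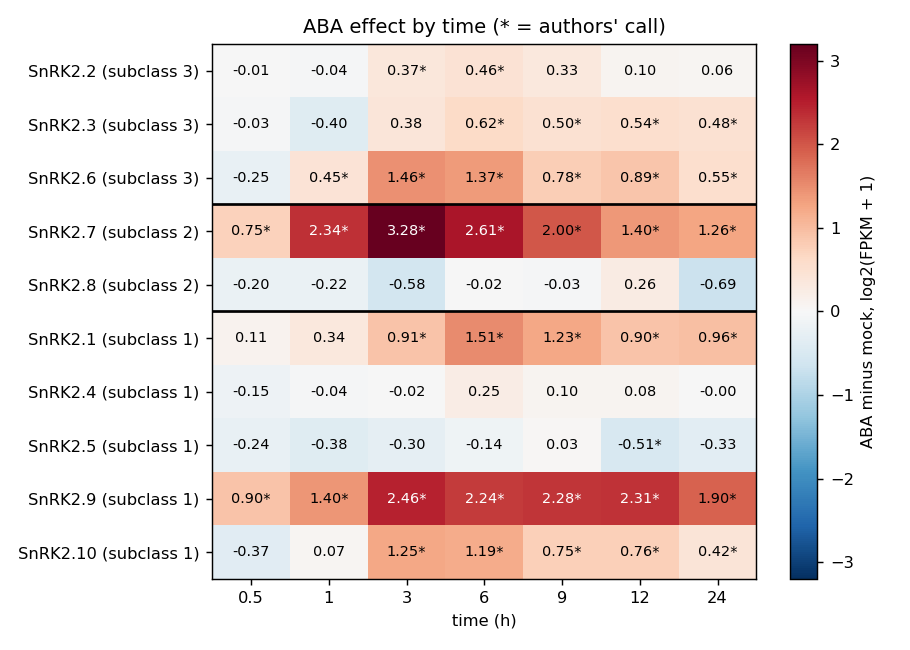
Difference of log2(FPKM + 1), ABA minus mock, for each SnRK2 gene (rows, by subclass) and time in h (columns), with an asterisk where the authors' deposited table called a difference. The largest cells are SnRK2.7 at 3 h (3.28) and at 6 h (2.61), followed by SnRK2.9 at 3 h (2.46), and SnRK2.4 and SnRK2.8 have no asterisk.

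Counted by time, calls in the authors' deposited table took in 2 members as higher at 0.5 h, where it called 8.83% of entries with a value above 0 higher, and 3 at 1 h (13.3% of entries). From 3 h on the authors' deposited table called 6 higher at 3 h (21.2%), 7 at 6 h (19.0%), 6 at 9 h (15.1%), 6 at 12 h (16.0%) and 6 at 24 h (16.5%). Called lower in the authors' deposited table were 0 members at 0.5 h (9.70% of entries), 1 h (8.83%), 3 h (17.1%), 6 h (18.5%), 9 h (15.7%) and 24 h (16.1%), and 1 member, SnRK2.5, at 12 h (15.5%). The member shares were above these backgrounds in the higher direction at all 7 times, which was not tested. In the lower direction, 0 or 1 of 10 members is too few to be told from these shares. The backgrounds also count entries below 1 FPKM, whereas all 10 members had at least 1 FPKM in every pool. Of the 3 ABA-activated genes, 0, 1, 2, 3, 2, 2 and 2 were called higher from 0.5 to 24 h in the authors' deposited table, and of the 7 others 2, 2, 4, 4, 4, 4 and 4.

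Sums of FPKM by subclass are given without a test, since members are not replicates. The 3 ABA-activated genes summed to 142, 140, 186, 197, 168, 154 and 145 FPKM from 0.5 to 24 h of ABA, against 148, 135, 114, 118, 122, 120 and 123 FPKM in mock. The 7 others summed to 173, 203, 351, 345, 284, 273 and 243 FPKM under ABA, against 175, 160, 163, 144, 149, 160 and 163 FPKM in mock. The ratio of the sums was lower for the ABA-activated genes than for the others at all 7 times. It was 0.9597 against 0.9909 at 0.5 h, 1.64 against 2.15 at 3 h and 1.18 against 1.49 at 24 h. A sum weights members by their level, and SnRK2.2 held 78.3 of the 114 FPKM of the ABA-activated genes in mock at 3 h. SnRK2.6 alone had a ratio of 2.82 at 3 h, above that of the summed others, while SnRK2.2 and SnRK2.3 were below it. Together, the ABA-activated genes held 34.6% of the family's FPKM at 3 h of ABA and 41.0% in mock. Subclass 2 held 12.8% at 3 h of ABA, nearly all of it SnRK2.7, and 3.58% in mock. The median averaged effect was 0.30 over the 3 ABA-activated genes and 0.58 over the 7 others, and both sets included genes with no called effect.

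**Figure D3:**
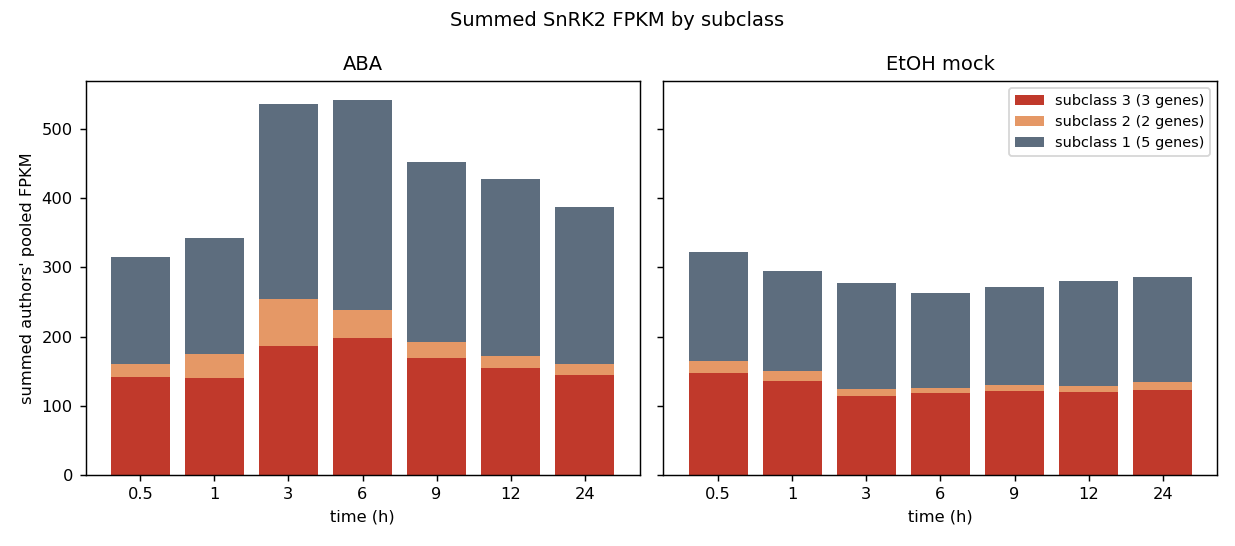
Summed pooled FPKM of the SnRK2 genes of each subclass (stacked bars from 0) at 7 times in h, under ABA on the left and in EtOH mock on the right. The family sum reaches 537 FPKM at 3 h and 542 FPKM at 6 h of ABA, against 277 and 263 FPKM in mock.

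Levels in mock are given as ranges over the 7 times. SnRK2.2 (78.3 to 98.2 FPKM) stood above all others. SnRK2.10 (39.4 to 59.5), SnRK2.1 (41.1 to 60.4) and SnRK2.4 (37.3 to 45.2) overlapped over the 7 times. SnRK2.6 (24.9 to 30.0 FPKM) lay between these and SnRK2.3 (10.3 to 19.3) without overlap, and the range of SnRK2.3 overlapped those of SnRK2.8 and, narrowly, SnRK2.5. SnRK2.5, SnRK2.9, SnRK2.7 and SnRK2.8 had mock medians of 5.19, 4.86, 4.37 and 3.99 FPKM and overlapping ranges. At 3 h of ABA SnRK2.7 reached 66.4 FPKM, above SnRK2.4 (44.5) and close to SnRK2.6 (70.7), although it was the ninth of 10 by its median in mock.

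Some members also changed with time in mock. The slope of log2(FPKM + 1) on log2 hours in the 7 mock pools was negative and called for SnRK2.5 (-0.17 ± 0.03 per doubling of time, SE; limma adjusted p = 0.0111), SnRK2.1 (-0.11 ± 0.03; 0.0232) and SnRK2.3 (-0.13 ± 0.04; 0.0403). It was positive and called for SnRK2.10 (0.10 ± 0.03; adjusted p = 0.0286). Among all genes the same limma fit called 14.9% falling and 14% rising, beside 3 and 1 of the 10 members. With each pool rescaled to the same sum, 1 member was called falling, SnRK2.5, and without the 0.5 h pool 0 were. SnRK2.1, SnRK2.3 and SnRK2.10 were no longer called without the 1, 9 or 12 h pool, nor SnRK2.3 without the 6 h pool or without a filter on low values. SnRK2.8 was called falling without the 24 h pool (-0.38; limma adjusted p = 0.00833, in a range of 0.00833 to 0.657 over 13 settings).

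The ABA effect itself differed between times for 4 members. Late effects (mean of 9, 12 and 24 h) minus early effects (mean of 0.5 and 1 h) were 1.01 ± 0.21 for SnRK2.9 (limma adjusted p = 0.0169), 0.72 ± 0.17 for SnRK2.3 (0.0254), 0.79 ± 0.19 for SnRK2.10 (0.0265) and 0.80 ± 0.21 for SnRK2.1 (0.0383), in log2 units with SE. SnRK2.6 had 0.64 ± 0.22 (95% interval 0.14 to 1.14), which did not pass (adjusted p = 0.0869). This value rested on the early times, being 0.29 without 0.5 h (adjusted p = 0.454) and 0.99 without 1 h, where it passed (adjusted p = 0.0344), in a range of adjusted p from 0.0344 to 0.454 over 13 settings. The fit called 6.63% of all genes higher late and 7.72% lower, and no member lower. SnRK2.7 had 0.01 ± 0.45, with mean effects of 1.54 early, 2.95 at 3 and 6 h and 1.55 late, so that its peak lies between the phases this test compares. SnRK2.6 had phase means of 0.10, 1.42 and 0.74, SnRK2.9 of 1.15, 2.35 and 2.16, and SnRK2.10 of -0.15, 1.22 and 0.65. The late minus early calls were fewer when certain times were left out, with 1 member called without 0.5 h, 1 without 9 h and 0 without 12 h. Without 1 h the call for SnRK2.1 and SnRK2.3 was lost, and without 24 h that for SnRK2.1.

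**Figure D4:**
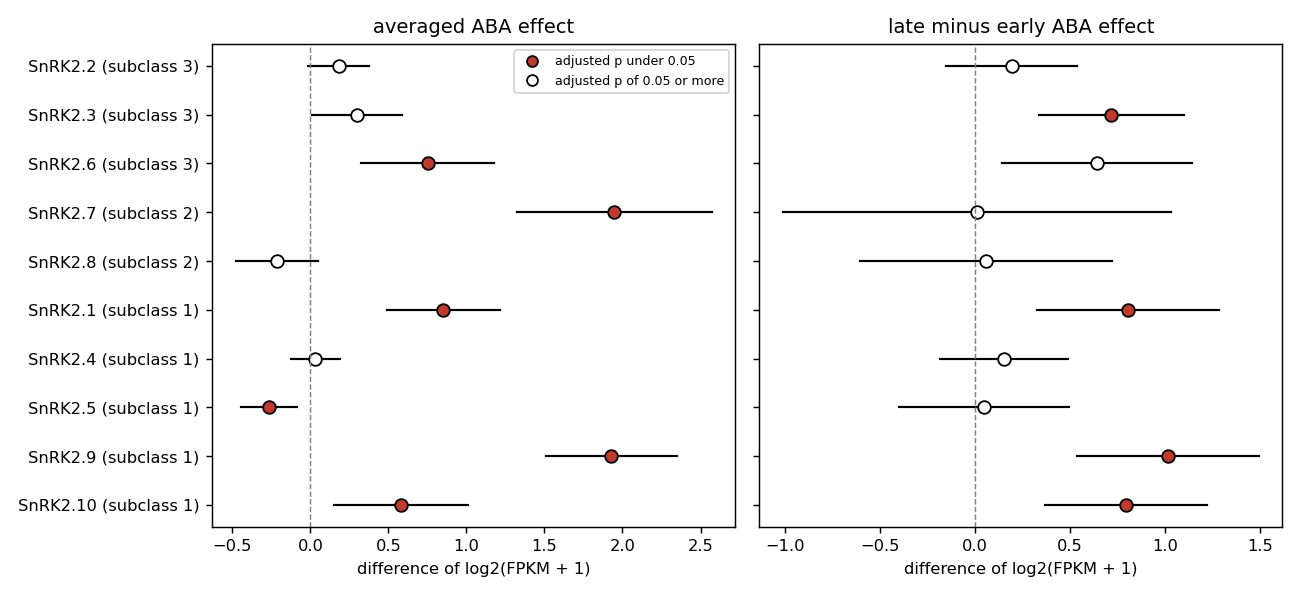
Averaged ABA effect (left) and late minus early ABA effect (right) of each SnRK2 gene as a difference of log2(FPKM + 1), with 95% intervals from limma as bars and filled points where the adjusted p was under 0.05. SnRK2.7 and SnRK2.9 lie near 1.9 on the left, and SnRK2.1, SnRK2.3, SnRK2.9 and SnRK2.10 are filled on the right.

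The closest relatives in sequence were compared in their responses. Each other's nearest coding sequences were SnRK2.1 and SnRK2.5 (86.8% identical bases), SnRK2.4 and SnRK2.10 (86.8%) and SnRK2.2 and SnRK2.3 (84.3%), with longest identical runs of 32, 59 and 45 bases, and how reads shared by a pair were assigned is not stated. These 3 pairs and their test, an exact sign-flip permutation test over the 7 times, were chosen after the values had been seen. The test treats successive times as independent and uses pooled values, so its p does not measure the spread between libraries. The averaged effect of SnRK2.1 exceeded that of SnRK2.5 by 1.12 ± 0.16 (log2, SE), with SnRK2.1 above at 7 of 7 times (exact two-sided p = 0.0156, the smallest possible; 0.0469 adjusted over 3 pairs). SnRK2.4 was below SnRK2.10 by 0.55 ± 0.19, at 6 of 7 times, which did not pass (exact p = 0.0469, adjusted 0.0703). The difference of SnRK2.2 minus SnRK2.3 was -0.12 ± 0.10 (exact p = 0.297, adjusted 0.297).

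Genes with the most similar courses over the 14 pools were sought among 14315 protein-coding genes with a mean of at least 5 FPKM, by Pearson's r of log2(FPKM + 1). The pools share times and treatments, so these r describe likeness and were not tested. They compare the shape of a course and not its size. SnRK2.6 was followed most closely by VTE1 (r = 0.981), which encodes tocopherol cyclase, AT5G01670 (0.977) and AT4G24130 (0.975). SnRK2.7 was followed by ABCG11 (0.993), a transporter of cuticle lipids, AT1G68500 (0.988) and ABCG1 (0.985). SnRK2.2 was followed by DWF4 (0.911), an enzyme of brassinosteroid synthesis, WLIM1 (0.909) and AT4G34070 (0.902), and SnRK2.3 by AT3G59300 (0.935), AT3G05160 (0.932) and AT1G04280 (0.923). SnRK2.5 was followed by IDD2 (0.907), AT3G10080 (0.901) and AT4G38660 (0.901).

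Other genes of the pathway were tested in the same limma fit. All 9 clade A PP2C genes, which encode the phosphatases that inhibit SnRK2 kinases, rose, with a median averaged effect of 3.45. HAI1 averaged 177 FPKM under ABA and 1.17 FPKM in mock (6.25 ± 0.27), and HAI3 59.1 and 0.106 FPKM (5.62 ± 0.25; limma adjusted p = 2.59e-06 and 2.74e-06). Of 14 receptor genes, 9 passed the filter on low values, and 7 of these fell and 0 rose, with PYL6 averaging 0.154 FPKM with ABA against 61.6 FPKM in mock (-5.73 ± 0.16) and PYL4 10.11 against 208 FPKM (-4.24 ± 0.20). Among 19 tested genes for upstream kinases of the RAF and BIN2 groups, 6 rose, 1 fell and 12 did not pass, with a median of 0.14. RAF35 averaged 16.2 FPKM under ABA and 3.94 FPKM in mock (1.74 ± 0.16), and RAF12 35.1 and 9.41 FPKM (1.65 ± 0.19).

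Of the kinases' targets, 6 of 7 tested bZIP factor genes rose and 0 fell (median 0.95). ABF3 averaged 99.97 FPKM under ABA and 21.9 FPKM in mock (2.09 ± 0.17; limma adjusted p = 5.45e-05), and ABF2 48.5 and 12.6 FPKM (1.85 ± 0.12; 1.85e-05). Of 8 other substrate genes, 3 rose and 0 fell (median 0.24). AKS1, a bHLH factor of guard cells, averaged 60.4 FPKM under ABA and 6.58 FPKM in mock (3.02 ± 0.26), and KUP6, a potassium transporter, 12.2 and 6.70 FPKM (0.78 ± 0.10). Each of these counts stands beside the background of 23.9% of genes higher and 23.2% lower.

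Markers of leaf and of root were both detected in these whole seedlings. The 4 leaf mesophyll markers summed to 24829 to 64253 FPKM under ABA and 22496 to 63801 FPKM in mock, and the 8 root markers to 57.3 to 163 FPKM and 68.0 to 184 FPKM. The 6 guard cell markers summed to 30.1 to 36.5 FPKM under ABA and 33.0 to 39.7 FPKM in mock, with 1 called higher (GORK, 1.87), 2 lower (MYB60, -1.07, and FAMA, -0.27) and 3 not called. Root markers had 3 called higher (CASP1, 0.42, COBL9, 0.70, and RHD6, 0.33), 1 lower (IRT1, -2.58) and 4 not called. IRT1 alone ranged from 0.134 to 112 FPKM over the 14 pools and so weighed on the root sum. Leaf markers had 0 called higher and 1 lower. No marker stayed below 1 FPKM in all pools. In whole seedlings, fewer cells of a type and less RNA per cell cannot be told apart, and the part of such shifts in the kinase values was not tested.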

How the data were processed

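Col-0 seedlings treated with ABA or EtOH were sequenced at 7 times, 2 libraries per group (28 in all). Per the submitters' processing notes, reads were checked with FastQC and aligned with STAR to TAIR10, with no versions given. The quantifier, its use of strand and how the 2 libraries were pooled were not given in the sources used here. Deposited was 1 FPKM per gene and group, pooled by the authors, a unit inferred from the values because the file headers name none. The pools summed to 903608 to 1173233 FPKM, and 18634 to 18930 genes reached 1 FPKM in a pool. Read depth is unknown. The log2 columns were deposited by the authors and equal log2 of ABA over mock (largest gap 0.00262, tolerance 0.01). The yes/no calls are the authors' own, with an unstated test and threshold.

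Values as log2(FPKM + 1) were fitted with limma 3.58.1 in R 4.3.3, with eBayes moderation trended on mean level, over the 20034 genes that reached 1 FPKM in 2 pools or more. The averaged effect had 6 residual degrees of freedom, late minus early 4 (with 3 and 6 h as a phase of their own) and the mock slope 5. Each takes the spread between times as its error, treats times as independent and uses a threshold of 0.05. All 10 members were named, with the 3 genes most like each of the 3 ABA-activated members and each of the 2 others of largest and smallest averaged effect, and the 2 genes of largest absolute averaged effect with a mean of at least 5 FPKM in each pathway list. Members and lists were chosen with earlier results of these data known. The fits were also run on simulated data with added changes of set size. Its noise was independent between pools and smaller than each gene's spread over the mock times. That run therefore does not cover times that depend on each other. Gene models, promoters and coding sequences came from RefSeq TAIR10.1, which matched 32813 of 33557 entries, and Biopython 1.88 aligned the coding sequences. Alternatives were pseudocount, filter, 2 scalings, a length correction, no trend and leaving out each time. The coding end of SnRK2.5 is not reported here.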

Additional observations from a re-analysis of the deposited data

Results flagged for a closer look

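The ABA effect differed between the late times (9, 12 and 24 h) and the early times (0.5 and 1 h) by limma's test of that difference for 4 members. The late minus early effect was 0.80 for SnRK2.1, 0.72 for SnRK2.3, 1.01 for SnRK2.9 and 0.79 for SnRK2.10 (log2; adjusted p = 0.0383, 0.0254, 0.0169 and 0.0265). Over 13 alternative settings these adjusted p-values ran from 0.0314 to 0.180, 0.0230 to 0.168, 0.00861 to 0.106 and 0.0117 to 0.162. The differences kept their sign in all 13 for each of the 4. Leaving out 3 h or 6 h, the filter or the trend cannot change these differences, so the sign was fixed in those settings. The cause of the difference was not tested.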

How the results depend on the processing

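No paired analysis was possible because the deposited columns are pools that carry no replicate number, so that ABA and mock were paired by time and not by replicate. The averaged effects of SnRK2.1, SnRK2.6, SnRK2.7 and SnRK2.9 passed under all 13 alternatives. At 24 h longer transcripts had higher ABA effects (Spearman's rho 0.293 over 19907 genes), and a correction for length kept these 4 calls. The pools give no replicate error, so small effects such as those of SnRK2.4 cannot be told from library spread.

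Leaving out each time gave 0 to 1 members called lower for the averaged effect (1 with all times), 0 to 4 called higher late minus early (4), and 0 to 1 rising and 0 to 4 falling in mock (1 and 3). All genes called higher late minus early then numbered 527 to 1288 (1328) and lower 590 to 1368 (1547). Those rising in mock numbered 1001 to 4033 (2811) and falling 1190 to 4442 (2984). With each pool rescaled to a common sum, 1 member and 1834 genes were called falling in mock. With calls at least 2-fold apart in the authors' deposited table, members higher numbered 0 at 0.5 h, 2 at 1 h, 4 at 3 h, 5 at 6 h, 3 at 9 h, 2 at 12 h and 2 at 24 h, and members lower 0 at 12 h. The share of all entries meeting this 2-fold rule was not counted, so these numbers cannot be set against a background.

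Signs turned only where no call was made. The averaged effect of SnRK2.4 was -0.0152 rescaled, -0.0251 with the length correction and -0.0055 to 0.061 when times were left out. Leaving out times gave late minus early effects of -0.10 to 0.167 for SnRK2.5 (-0.02 without 1 h), -0.79 to 0.806 for SnRK2.7 (-0.21 without 9 h) and -0.15 to 0.325 for SnRK2.8 (-0.003 without 9 h). The mock slope turned when rescaled for SnRK2.2 (0.0115), SnRK2.6 (0.0011), SnRK2.7 (0.0129) and SnRK2.9 (0.0190). Leaving out times, it ran from -0.0019 to 0.0165 for SnRK2.4, -0.053 to 0.0053 for SnRK2.7 and -0.0507 to 0.0905 for SnRK2.9. The cause was not tested. Without 1 time each, the pair SnRK2.1 and SnRK2.5 differed by 1.03 to 1.25. With 6 times a pair cannot pass alone after adjustment over 3 pairs (0.0938 at best). Without 0.5 h the pair SnRK2.4 and SnRK2.10 (-0.68) reached the smallest possible p too. Both pairs then passed (exact sign-flip test, adjusted p = 0.0469 for each). In every other setting with 1 time left out, SnRK2.1 and SnRK2.5 had 0.0938. Those settings say nothing of the stability of the call for this pair.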
